A study of Mus musculus with 4 samples.

Results

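Mouse EML cells carrying the KIT mutant D816V were compared with EML cells carrying the KIT mutant Del417-419insY, both after 48 h in SCF at 250 ng/mL. EML is a lymphohematopoietic progenitor line, and SCF (stem cell factor) binds and activates KIT, a receptor tyrosine kinase. The comparison is the D816V array with SCF minus the Del417-419insY array with SCF, 2 of the 4 arrays of the series, with 1 array per side. It covers 6404 genes, each the mean of the probe sets that carry its symbol alone. The other arrays are the same lines without SCF, and their difference is given beside it because it shares no array with it. The sources used here do not state a culture time for the arrays without SCF. All 4 groups carry a KIT mutant delivered by retrovirus into the same parental line, and no array of cells with normal KIT was used. Per the labels' protocols each mutant line was drug-selected, grown without added factor until autonomous and sorted for KIT. A line is thus 1 selected population, and mutant and population cannot be told apart. With 1 array on each side no difference has a replicate check, an error or a p-value. Sizes are therefore described, and a gene is counted where the arrays differ 2-fold or more, a log2 difference of 1 or beyond.

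KIT carries an extracellular part that binds SCF and a split intracellular kinase. On binding, receptors pair and phosphorylate each other, and adaptors pass the signal to the RAS and ERK cascade, to PI3 kinase and to the STAT transcription factors. KIT keeps blood progenitors alive and drives the growth and maturation of mast cells. D816V lies in the activation loop of the phosphotransferase domain, while Del417-419insY alters the extracellular domain. Both occur in mastocytosis, in which mast cells accumulate.

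The values are log2 levels relative to a zero that was set separately for each probe set and whose source is unstated. A value therefore shows how an array stands against the other arrays for the same gene, and it cannot be set against the value of another gene. Whether a defining marker of EML cells is present cannot be read from such values. The D816V array with SCF had a median of -0.20 and an SD of 0.79 across probe sets, against -0.04 and 0.59 for Del417-419insY with SCF. Gene differences accordingly centred on -0.14, with 42.0% of genes above 0. After each array was centred on its median this became 0.01 and 50.6%. The lower side is thus the one that scaling touches most. Before scaling 406 genes were 2-fold or more higher in D816V cells (6.34% of those tested) and 475 lower (7.42%). After median centring the counts were 494 higher (7.71%) and 347 lower (5.42%), after quantile normalization 428 (6.68%) and 361 (5.64%), and after cyclic loess 453 (7.07%) and 325 (5.07%). The balance between higher and lower genes turned with the scaling, and 366 higher and 267 lower genes kept their call under all 4 settings. Cyclic loess fits the differences between arrays against their mean value. Here that mean is relative to each probe set's own zero, so it is not a signal intensity. Quantile normalization likewise ranks values across probe sets whose zeros differ, and it gives all arrays the same spread.

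**Figure D1:**
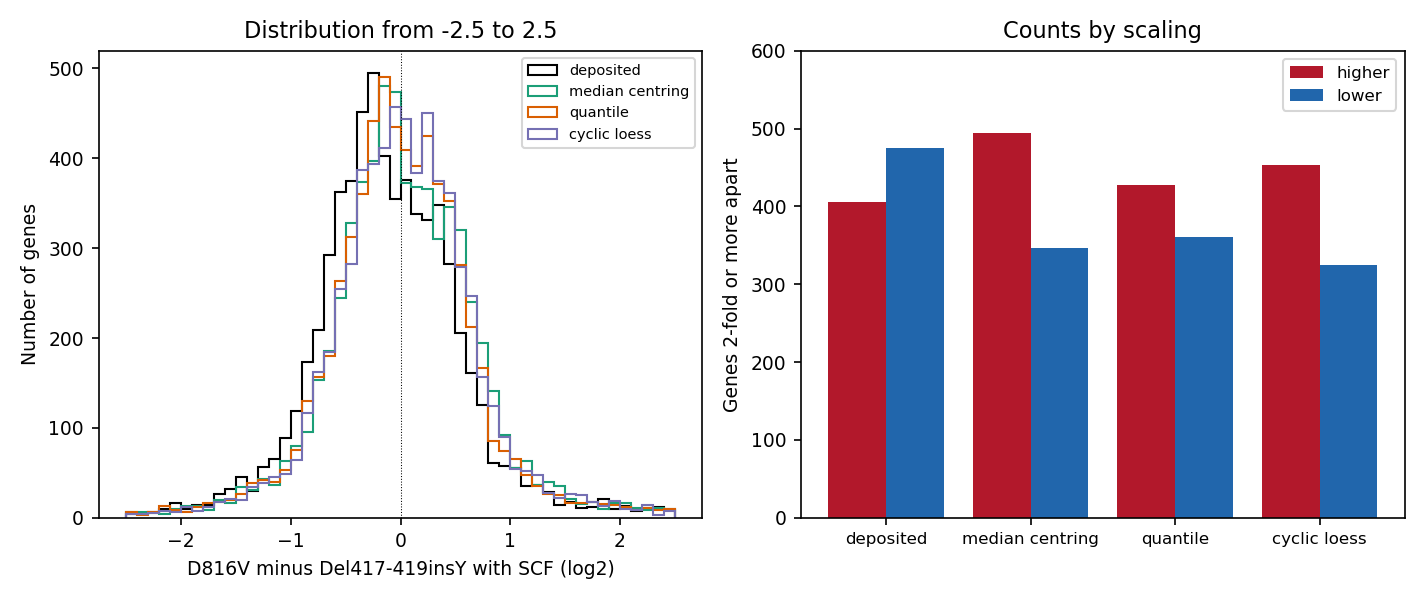
Left, the number of genes at each log2 difference between D816V and Del417-419insY cells with SCF, from -2.5 to 2.5, for the deposited values and 3 scalings. Right, the number of genes 2-fold or more higher or lower under each setting: the deposited values give more lower genes (475) than higher ones (406), and median centring gives the opposite (347 and 494).

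Differences with SCF ran from -6.59 to 8.44, and the middle of the genes from -0.51 at the 25th percentile to 0.31 at the 75th. The upper side reached farther: at 4-fold or more 164 genes were higher and 90 lower, and at 16-fold the counts were 34 and 8. Just inside the threshold lay Gmppb and Lage3 on the higher side and Trim35 and Klhl23 on the lower side. Just outside lay Pqlc3 and Sh3bp2, and Atp2b4 and Ncoa4. All of these differences round to 1.0 or -1.0. Of the 406 higher genes, 170 stood above 1 in D816V cells with Del417-419insY cells within 1 of zero. A further 73 were below -1 in Del417-419insY cells with D816V cells near zero. Of the 475 lower genes, 204 were below -1 in D816V cells alone and 69 above 1 in Del417-419insY cells alone. Most of the remaining called genes had both arrays within 1 of zero, 110 of the higher and 171 of the lower ones.

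Most of the genotype difference was there without SCF too. Of the 406 higher genes, 330 were also 2-fold or more higher without SCF, 81.3% of the list with SCF and 81.9% of the 403 higher without it (6.29% of genes). On the lower side 243 genes were shared, 51.2% of the 475 but 90.3% of the 269 lower without SCF (4.2% of genes). The 232 genes called lower with SCF alone had a median difference of -1.19 with SCF and -0.69 without. Of the 475 lower genes, 8 lay above 0 without SCF. Of the 232 called with SCF alone, 81 kept the call under all 4 scalings. For 5659 genes, 88.4%, the 2 differences lay within 0.5 of each other. Just 3 genes, Chac1, Trib3 and Hbb-bh1, were 2-fold or more apart in opposite directions.

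**Figure D2:**
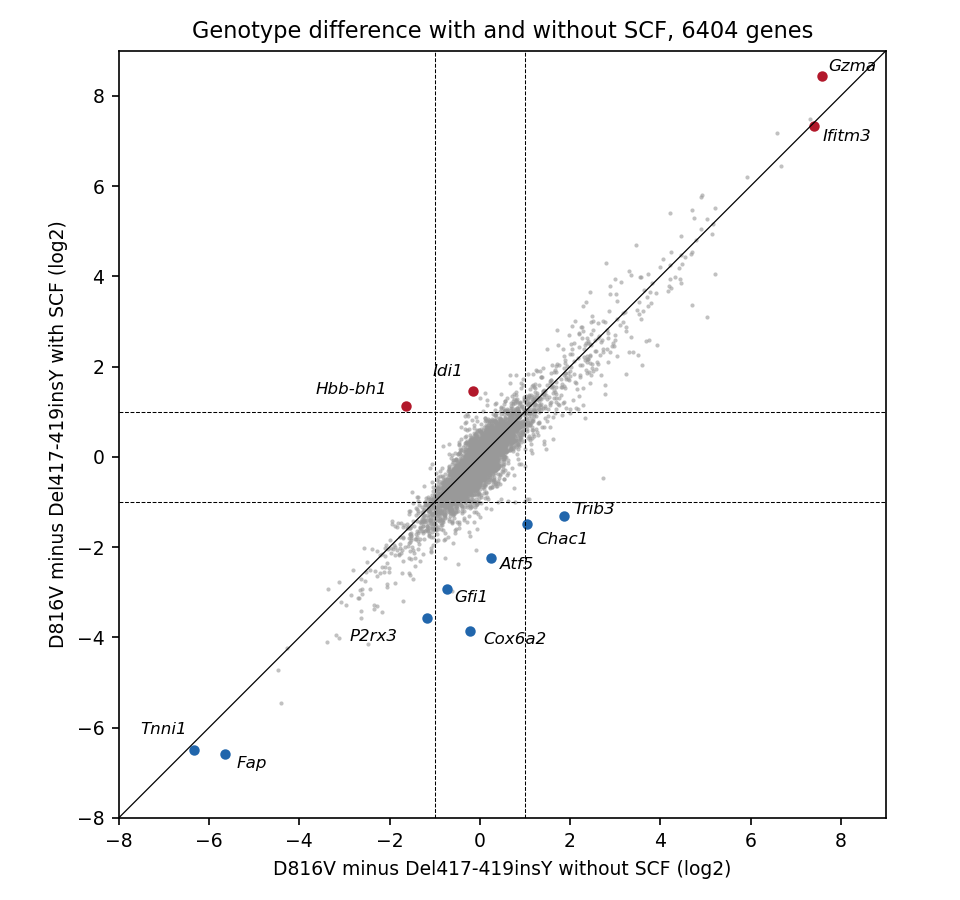
Each point is 1 of 6404 genes, with its log2 difference between D816V and Del417-419insY cells without SCF on the horizontal axis and with SCF on the vertical axis; dashed lines mark 2-fold and the solid line equal differences. Gzma, Ifitm3, Fap and Tnni1 lie at the ends of the diagonal, while Cox6a2, Atf5, Trib3 and Chac1 lie below it and Hbb-bh1 and Idi1 above it.

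The signal of the Kit probe sets was lower in D816V cells. Kit stood at -2.34 in D816V and -0.57 in Del417-419insY cells with SCF, and -1.83 and -0.76 without SCF. The D816V arrays were the lower ones in both conditions, with differences of -1.77 with SCF and -1.07 without. Its 2 probe sets gave -2.10 and -1.44 with SCF, and cyclic loess reduced the mean to -0.94, short of 2-fold. The sources used here do not state the species of the KIT constructs, so these probe sets check no label. Among 31 measured genes of KIT and its proximal signalling, 2 were higher and 2 lower, with a median of -0.26 against -0.14 over all genes. These shares lie near the background, and after cyclic loess 0 of the 31 were lower. Lcp2, the SLP-76 adaptor that links receptors to phospholipase C gamma, was higher by 1.51, from 1.02 against -0.49. Pik3cd, the delta catalytic subunit of PI3 kinase found mainly in blood cells, was higher by 1.15. Vav3, an exchange factor that acts downstream of receptors, was at -1.05 with SCF and -0.06 without. The remaining adaptors and kinases stayed within 2-fold, among them Grb2 (-0.68), Shc1 (-0.26), Gab2 (-0.05), Fyn (-0.77) and the p85 subunit gene Pik3r1 (-0.66). So did the negative regulators Cbl (-0.52), an E3 ligase, and Ptpn6 (-0.39) and Inpp5d (-0.30), which encode phosphatases. In 27 of the 31 genes the difference was lower with SCF than without, against 58.2% of all genes.

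Several genes known as targets and feedback inhibitors of STAT5 were higher in D816V cells. Cish, which encodes an inhibitor that docks on activated cytokine receptors, stood at 3.78 in D816V and -0.43 in Del417-419insY cells with SCF, and 4.35 and 0.36 without SCF. It was 18.5-fold higher with SCF. Socs2, of the same inhibitor family, stood at 3.75 in D816V and 0.07 in Del417-419insY cells with SCF, and 4.35 and 0.18 without SCF. Both genes were high in both D816V arrays and near zero in both Del417-419insY arrays. Cyclic loess left differences of 2.55 and 1.93 in place of 4.21 and 3.69. The survival kinase genes Pim1 and Pim2 were higher by 2.69 and 1.80, Socs1 by 2.21, the cytokine gene Osm by 1.98 and the anti-apoptotic Bcl2l1 by 1.25. Others of these families were within 2-fold. Socs3, with probe sets from -0.60 to -0.48, Socs5 (-0.22) and Socs7 (-0.33) lay below 0, and the probe sets of Pim3 gave 0.58 and 0.65. Mcl1 was at 0.15, and the probe sets of Ccnd2 ran from -0.23 to 0.75. Of 27 measured genes of this pathway 7 were higher and 2 lower (25.9% and 7.41%, against 6.34% and 7.42% of all genes). The list holds unlike parts, and its JAK kinases and STATs lay lower or within 2-fold. Stat5a stood at -1.43 against -0.02 with SCF, a difference of -1.41, or -0.86 after cyclic loess, and Stat5b at -0.65. Jak1, Jak2, Jak3, Stat2 and Stat3 lay at -0.72, 0.41, -0.56, 0.19 and -0.92. Bcl6, a transcriptional repressor, was at -1.69 with SCF and -0.54 without, and at -0.89 after cyclic loess. The STAT site core TTCNNNGAA was in 2 of 20 list members with a RefSeq promoter (250 bases before the start, both strands), against 7.09% of all measured genes with one.

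Genes of the RAS and ERK cascade went both ways, 6 higher and 4 lower of 32, with a median of 0.05. These are 18.8% and 12.5%, against 6.34% and 7.42% of all genes. Rasa4, which encodes a calcium-regulated RAS GTPase-activating protein, was higher by 2.29, from 0.55 against -1.74. Fosl2 and Junb, subunits of the AP-1 transcription factor, were higher by 2.16 and 1.14, and Etv5, an ETS factor induced by ERK, by 1.30. Their differences without SCF were 2.04, 2.37, 1.56 and 1.75, so these genes separated the lines in both conditions. On the lower side Rasgrp2, a RAS family exchange factor, was at -2.50, but its 3 probe sets ranged from -4.65 to -0.54. Fos, the immediate early AP-1 subunit, was at -1.78 with SCF and -0.71 without. Ccnd1, cyclin D1, was at -1.41 and -1.23. The ERK phosphatase gene Dusp6 was within 2-fold, at 0.06 with SCF and 0.83 without, as were Dusp4 (0.07), Spred1 (-0.34), Egr1 (0.76) and Myc (-0.15). Nf1, which encodes the RAS inhibitor neurofibromin, was at -1.22 with SCF and -0.12 without, and at -0.92 after cyclic loess. For 28 of 32 genes the difference lay lower with SCF than without, against 58.2% of all genes.

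The genes highest in D816V cells encode proteins of unlike function. Gzma, granzyme A of cytotoxic granules, stood at 7.94 in D816V and -0.50 in Del417-419insY cells with SCF, and 8.15 and 0.57 without SCF, 348-fold higher with SCF. Both D816V arrays were far above zero and both Del417-419insY arrays within 1 of it. Akr1c12, an aldo-keto reductase, stood at 7.38 in D816V and -0.10 in Del417-419insY cells with SCF, and 7.26 and -0.06 without SCF, and its close paralog Akr1c13 differed by 7.19. Cross-reading between the probe sets of these paralogs was not tested. Ifitm3, an interferon-induced membrane protein that hinders virus entry, gave the reverse picture, at -0.03 in D816V and -7.37 in Del417-419insY cells with SCF, and -0.11 and -7.51 without SCF. There the Del417-419insY arrays were far below zero and the D816V arrays at it. Tspan13, a tetraspanin, Pygl, liver-type glycogen phosphorylase, Unc119, a carrier of lipid-modified proteins, and Poglut1, an O-glucosyltransferase acting on Notch, were likewise far below zero in Del417-419insY cells. Their Del417-419insY values were -4.20, -4.31, -3.72 and -4.78, with differences of 5.48, 5.40, 5.30 and 4.54. Trgv4, a variable segment of the T cell receptor gamma locus, was higher by 6.45, and Fcer1a, the IgE-binding chain of the high-affinity receptor, by 6.20. Metrnl, a secreted factor, Arnt2, a basic helix-loop-helix partner protein, and Tph1, which makes the serotonin precursor, followed at 5.80, 5.75 and 5.52. Arnt2 was at 5.67 against -0.08, and its difference without SCF was 4.91. Crybg1, Gbp2, the tight junction gene Tjp1, Tspan8, Parp14, the leukocyte adaptor Lpxn and Oas3 completed the list of 20, between 4.69 and 5.27. Cyclic loess removes the trend of differences along the mean value relative to each probe set's zero, so differences can shrink or grow. After it Gzma was at 4.20, Akr1c12 at 3.78 and Trgv4 at 2.92. Crybg1 was then at 2.68, Gbp2 at 2.28, Tspan8 at 2.61 and Tjp1 at 2.80.

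**Figure D3:**
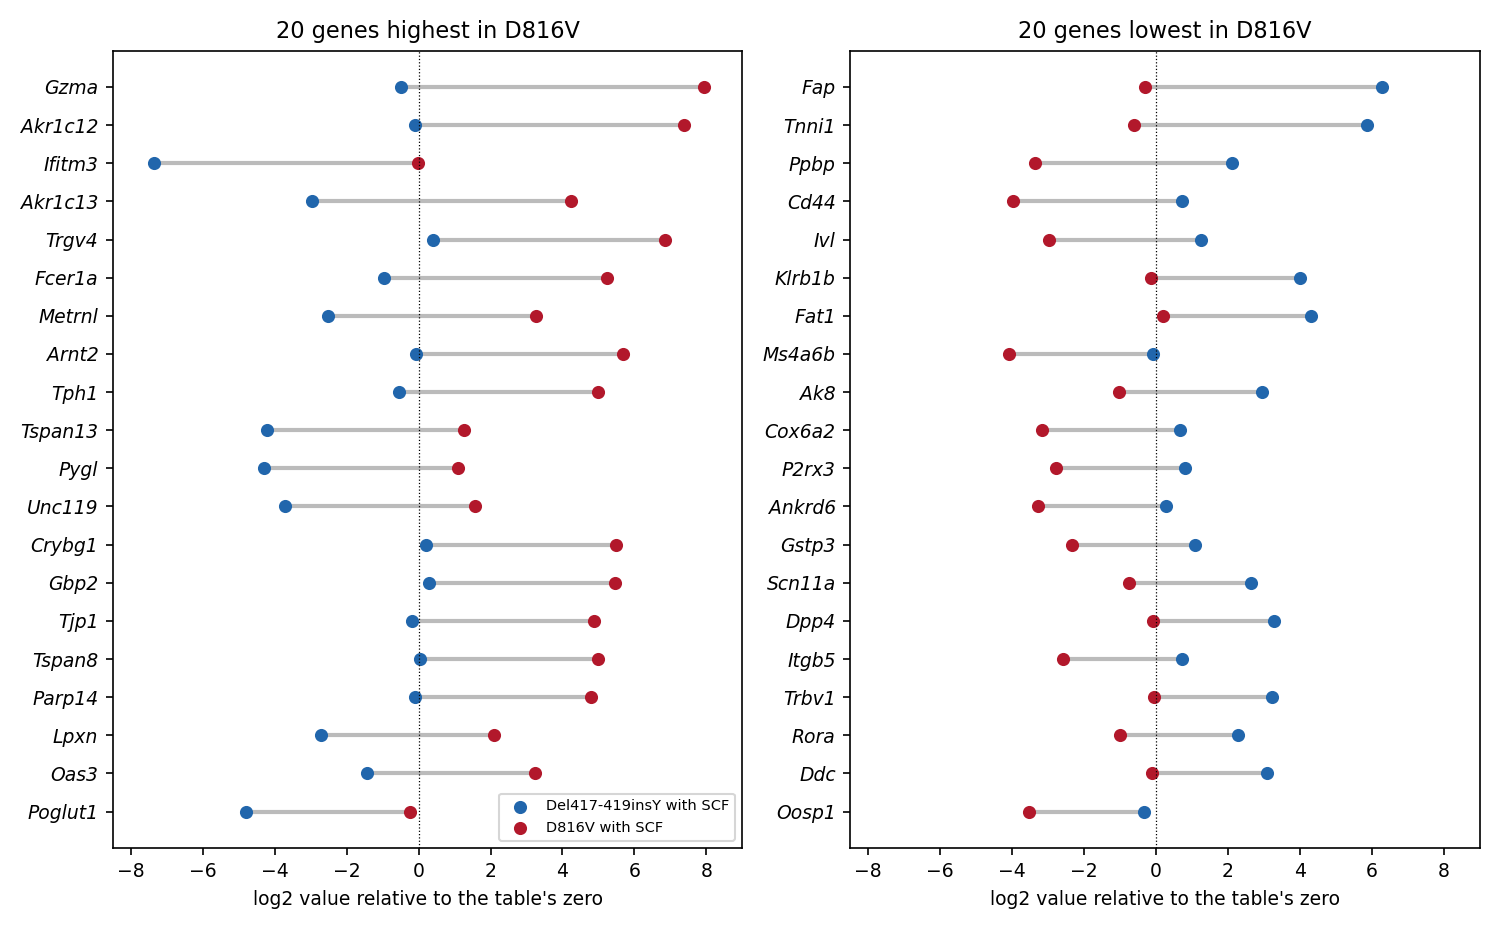
The 20 genes with the largest positive (left) and negative (right) differences among those 2-fold or more apart under all 4 scalings; points are the log2 values of the D816V array and the Del417-419insY array with SCF relative to the table's zero (dotted line), 1 array each. Gzma and Akr1c12 lie far above zero in D816V cells, Ifitm3 and Poglut1 far below it in Del417-419insY cells, and Fap and Tnni1 far above it in Del417-419insY cells.

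Among the lists with 10 or more measured members, interferon-stimulated genes had the largest share of higher members, 56.7% against 6.34% of all genes. Interferons signal through STAT factors, which bind response elements in front of antiviral genes. Of 67 measured members 38 were higher and 2 lower with SCF, and the median was 1.13. After cyclic loess 36 were higher, with a median of 1.08. Without SCF the counts were 38 and 1 and the median 1.22. Promoters of some of these genes are shown because 59 of the 67 measured members lay above 0. The 250 bases before each RefSeq start (GRCm38.p6) were searched on both strands for the core of the interferon response element, GAAA followed by any 2 bases and GAAA. It was in 17 of 52 list members with a promoter in the RefSeq table (32.7%), against 3.01% of the 5248 measured genes with one. Among all genes 2-fold or more higher, the higher list members included, the share was 8.59% (28 of 326), and among lower genes 2.10%. Within the list 11 of 27 higher members and 6 of 25 others held it. Capitals mark the match, which on the opposite strand reads TTTC, any 2 bases and TTTC, in 5 higher members chosen to span guanylate-binding, antiviral and immunity-related GTPase genes, each given from 5′ to 3′ on the strand of its gene.
Gbp2, chr3:142620589-142620628, plus strand: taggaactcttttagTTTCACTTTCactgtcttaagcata
Gbp7, chr3:142530268-142530307, plus strand: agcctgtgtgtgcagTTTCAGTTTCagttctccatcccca
Ifit1, chr19:34640770-34640828, plus strand: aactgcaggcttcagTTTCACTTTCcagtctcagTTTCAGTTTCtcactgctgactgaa
Igtp, chr11:58199507-58199546, plus strand: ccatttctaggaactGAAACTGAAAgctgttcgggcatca
Oas3, chr5:120777710-120777749, minus strand: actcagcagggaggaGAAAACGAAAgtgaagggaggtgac
The Ifit1 stretch holds the motif in 2 places. A match describes these letters and is no evidence of binding.

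Gbp2, a guanylate-binding protein that attacks pathogen vacuoles, stood at 5.45 in D816V and 0.29 in Del417-419insY cells with SCF, and 5.64 and 0.48 without SCF. The D816V value was 35.8-fold higher with SCF. Gbp7 and Gbp6 of the same family were higher by 3.94 and 3.06. Iigp1, an immunity-related GTPase, stood at 4.40 in D816V and 0.35 in Del417-419insY cells with SCF, and 5.06 and -0.15 without SCF, a difference of 4.05 with SCF and 5.21 without. The relatives Igtp, Irgm1 and Irgm2 were higher by 1.94, 1.08 and 1.16, after 2.58, 1.28 and 2.28 without SCF. Oas3, Oasl2, Oas2 and Oas1a, synthetases or synthetase-like proteins that sense double-stranded RNA, were at 4.69, 4.25, 2.49 and 1.19. Oas3 stood at 3.24 in D816V and -1.45 in Del417-419insY cells with SCF, and 3.23 and -0.23 without SCF, so its Del417-419insY value was lower with SCF and its D816V value nearly equal. Ifit1, which binds viral RNA, Rsad2 (viperin) and Mx1, an antiviral GTPase, were higher by 4.19, 3.84 and 3.54. Parp14, an ADP-ribosyltransferase, was at 4.89 and the chaperone gene Rtp4 at 3.95. Irf7, the transcription factor that amplifies type I interferon, differed by 3.42 with SCF and 2.35 without. Usp18, a brake on interferon receptor signalling, went the other way, with 3.35 with SCF and 4.71 without. In 49 of 67 members the difference was lower with SCF, against 58.2% of all genes.

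The sensors of cytosolic RNA split. Ifih1 (MDA5) stood at 0.29 in D816V and 3.23 in Del417-419insY cells with SCF, and -0.04 and 2.62 without SCF. It was 7.72-fold lower in D816V cells with SCF. Ddx58 (RIG-I), another of these sensors, was higher by 2.38, and Mavs, the adaptor of both, by 1.04. Zbp1, a sensor of Z-form nucleic acid, was at 2.18. Not all response genes were higher: Irf9 lay at -0.08, Stat2 at 0.19, Eif2ak2 (PKR) at 0.29 and Ifi30 at -1.29. Of 18 Toll-like receptor and innate sensor genes 6 were higher and 2 lower (33.3% and 11.1%, against 6.34% and 7.42% of all genes). Tlr12 was the other lower one, at -2.64, while Irak2 was at 1.5. MHC class I genes gave 5 higher and 1 lower of 19 (26.3% and 5.26%). H2-D1 and H2-K1, classical class I heavy chains, were higher by 2.91 and 2.24, Nlrc5, their transactivator, by 1.82, the immunoproteasome subunit gene Psmb9 by 1.62 and the peptide transporter gene Tap1 by 1.30. Class I heavy chain genes are alike in sequence, and cross-reading between their probe sets was not tested. B2m, the light chain, was at 0.41, and Cd1d1, a lipid-presenting molecule, at -1.14.

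Many genes of mast cells were also higher in D816V cells, several by less with SCF than without. In bulk RNA fewer cells of a type and less RNA per cell cannot be told apart. Of 15 measured protease and granule genes 8 were higher and 1 was lower, with a median of 1.06. These are 53.3% and 6.67%, against 6.34% and 7.42% of all genes. The lower gene was Ctsg, cathepsin G, at -1.12, which was within 2-fold after centring (-0.97). Cma1, a mast cell chymase, stood at 1.41 in D816V and -1.68 in Del417-419insY cells with SCF, and 2.60 and -2.44 without SCF. Its difference was 3.10 with SCF and 5.04 without, since the D816V value was lower and the Del417-419insY value higher with SCF. Mcpt4, another chymase, stood at -1.42 in D816V and -3.65 in Del417-419insY cells with SCF, and 0.35 and -1.51 without SCF. The Tpsb2 tryptase stood at -1.52 in D816V and -3.10 in Del417-419insY cells with SCF, and -0.19 and -1.15 without SCF. For both proteases each line was lower with SCF, and the genotype differences were 2.23 and 1.59. Mcpt8, a basophil protease, was at 1.06 with SCF and 2.0 without, and Mcpt2 at 0.86 and 2.34. Rab27b, a GTPase of granule docking, was higher by 3.99, Rab27a by 1.06 and Ndst2, which sulphates granule heparin, by 1.33. The granule proteoglycan core Srgn (0.26) and the fusion gene Stxbp2 (-0.32) were within 2-fold.

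Mediator synthesis and receptors gave further members. Of 12 measured genes of amine and eicosanoid synthesis 5 were higher and 2 lower (41.7% and 16.7%, against 6.34% and 7.42% of all genes). Hdc, which makes histamine, differed by 1.23 with SCF and 1.86 without, Hpgds, which makes prostaglandin D2, by 1.60 and 2.78, and Tbxas1, thromboxane synthase, by 2.15 and 1.88. Gch1, which makes the cofactor of amine synthesis, was at 2.06. Ddc, the decarboxylase that follows Tph1 in serotonin synthesis, went the opposite way to it, at -0.12 in D816V and 3.09 in Del417-419insY cells with SCF, and 0.21 and 3.28 without SCF. Ptgs2, inducible cyclooxygenase, was at -2.24 with SCF and -0.77 without, with the D816V array with SCF the lowest of the 4 at -2.25. Of 22 mast cell regulators and surface genes 9 were higher and 3 lower (40.9% and 13.6%). Adora3, an adenosine receptor, and Slc6a4, the serotonin transporter, were higher by 4.28 and 3.25, and the inhibitory or paired receptors Cd200r4 and Cd200r1 by 2.58 and 1.05, after 3.75 and 2.18 without SCF. After cyclic loess 8 were higher and 0 lower. The regulators Gata2 and Mitf lay at 0.29 and 0.31. Of 13 genes of the IgE receptor pathway 3 were higher and 1 lower (23.1% and 7.69%), with a median of 0.09. Fcer1a stood at 5.25 in D816V and -0.95 in Del417-419insY cells with SCF, and 5.49 and -0.42 without SCF, and Orai1, a calcium channel, was at 1.01. Syk, the kinase that the receptor recruits, was at -1.09, or -0.93 after centring.

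Few lymphoid genes were in the table, 11 of 55 listed for T, NK and cytotoxic cells and 2 of 26 for B cells. Of the former 6 were higher and 3 lower (54.5% and 27.3%, against 6.34% and 7.42% of all genes). After cyclic loess 4 were higher and 3 lower, and the median was 0.68 in place of 1.88. Besides Gzma and Trgv4 the higher ones were Gzmc (4.02), Cd247, the zeta chain of the T cell receptor complex (2.42), the kinase gene Txk (1.98) and Ltb, lymphotoxin beta (1.88). Gzmc stood at 6.62 in D816V and 2.60 in Del417-419insY cells with SCF, and 6.23 and 2.88 without SCF, above zero on all 4 arrays, and cyclic loess turned its difference to -0.90. Lower were Trbv1, a T cell receptor beta segment (-3.29), Ctsw, cathepsin W (-1.94), and Cd160 (-1.43). Klrb1b, an NK receptor outside that list, stood at -0.14 in D816V and 4.0 in Del417-419insY cells with SCF, and -0.18 and 2.29 without SCF. Ighm, the immunoglobulin mu chain, was at -2.05. Of 8 measured dendritic cell and MHC class II genes, Ccr7, Cd74 and Bst2 were higher, by 2.47, 1.71 and 1.13. Lower were Dpp4, Tmem176b and Tmem176a, at -3.36, -2.55 and -2.54, so each side held 37.5% of this list.

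**Figure D4:**
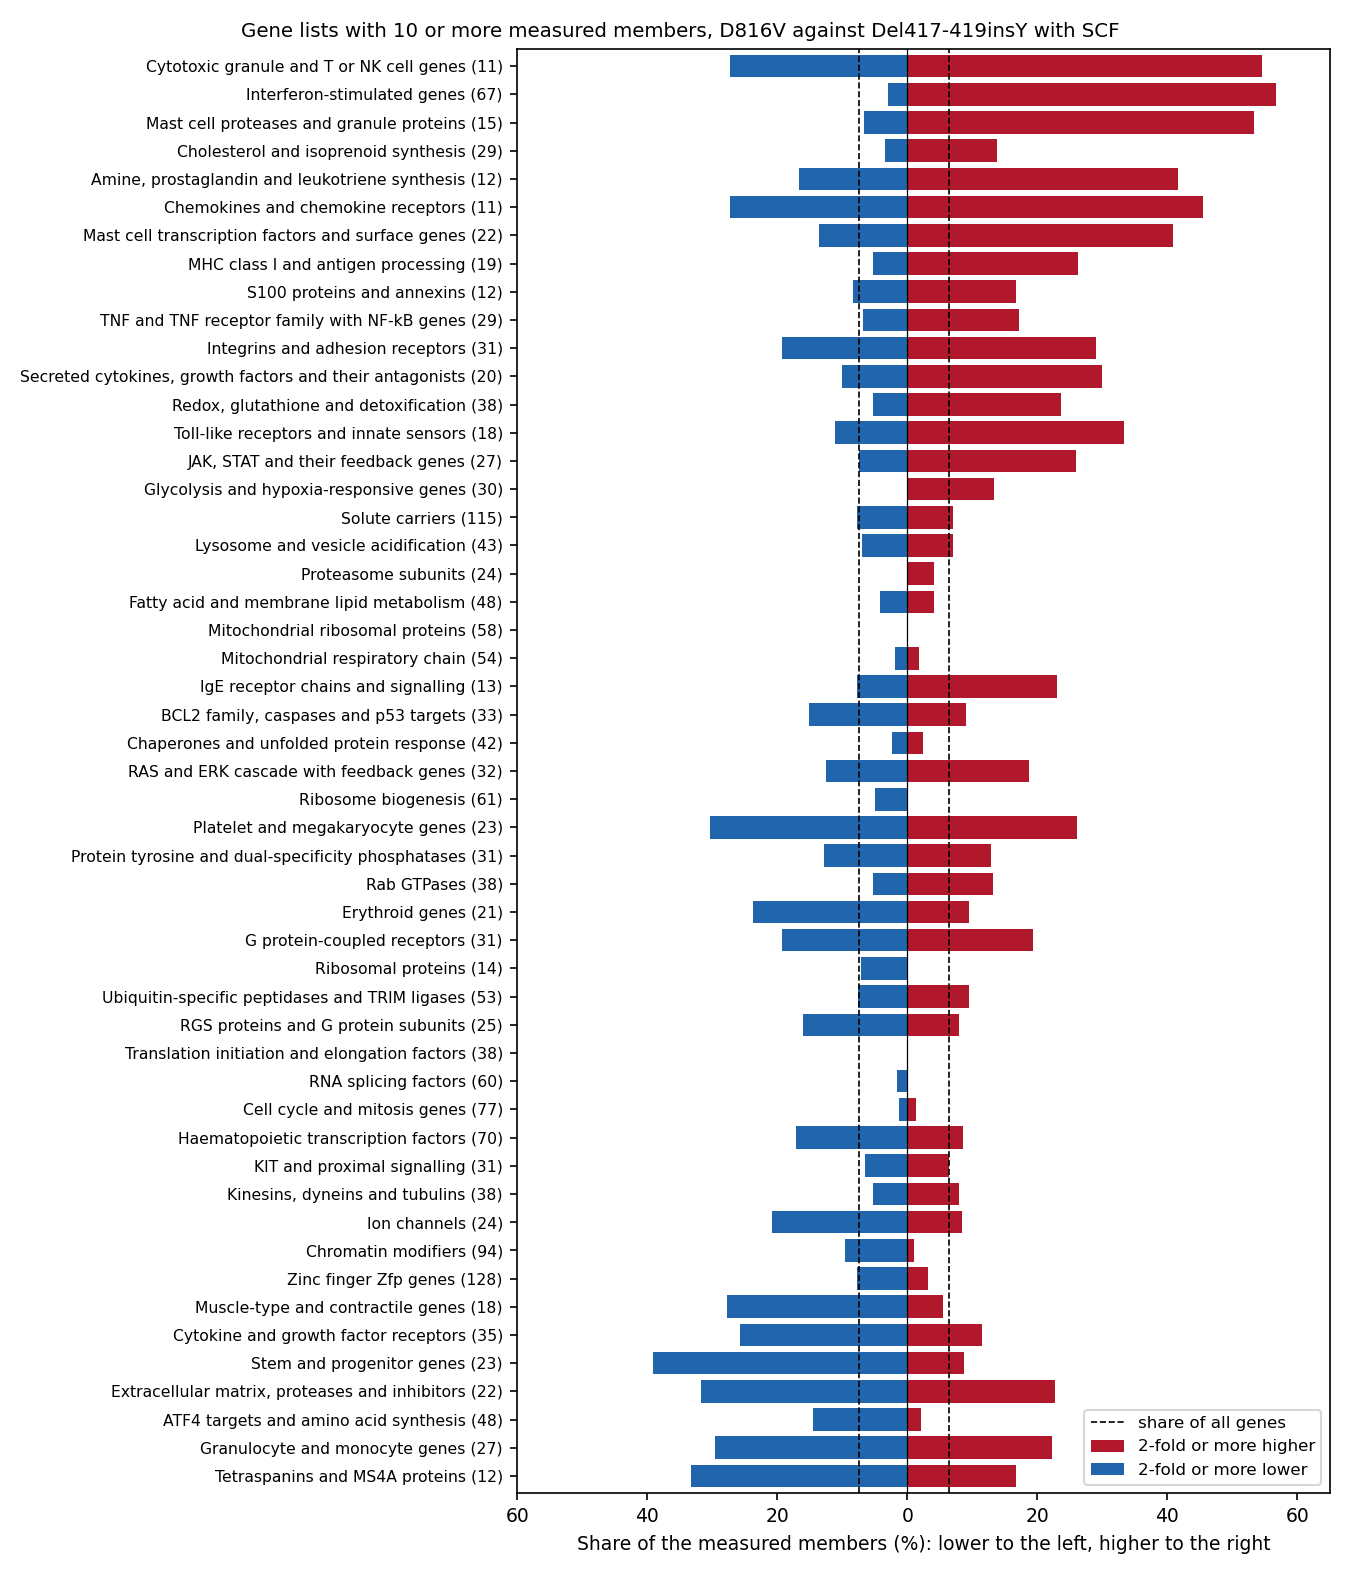
Share of the measured members of each gene list (number in brackets) that were 2-fold or more higher (right) or lower (left) in D816V than in Del417-419insY cells with SCF, 1 array each, ordered by list median; dashed lines mark the shares over all genes, 6.34% and 7.42%. Lists with 10 or more measured members are drawn, other than 1 not reported here; among them interferon-stimulated genes reach farthest to the right, and stem and progenitor genes farthest to the left.

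The genes lowest in D816V cells were likewise mixed. Fap, fibroblast activation protein, stood at -0.30 in D816V and 6.29 in Del417-419insY cells with SCF, and 0.49 and 6.14 without SCF, 96.3-fold lower with SCF. Tnni1, slow skeletal troponin I, stood at -0.62 in D816V and 5.87 in Del417-419insY cells with SCF, and -0.32 and 6.01 without SCF. For both genes the Del417-419insY arrays were far above zero and the D816V arrays near it. Ppbp, a chemokine of platelet granules, spanned zero, at -3.36 in D816V and 2.10 in Del417-419insY cells with SCF, and -2.54 and 1.85 without SCF. Cd44, the hyaluronan receptor, stood at -3.98 against 0.73 and Ms4a6b, a leukocyte membrane protein, at -4.10 against -0.09, both far below zero in D816V cells. Ivl (involucrin), Fat1, a large cadherin, and Ak8, an adenylate kinase, were lower, at -4.23, -4.10 and -3.96. Ankrd6, Gstp3, the sodium channel gene Scn11a, the peptidase gene Dpp4, the integrin gene Itgb5 and the nuclear receptor gene Rora were lower, at -3.56, -3.43, -3.41, -3.36, -3.31 and -3.27. Itgb5 and Rora have 4 probe sets each, from -4.31 to -2.27 and from -3.89 to -2.69, all of 1 sign. Klrb1b, Cox6a2, P2rx3, Ddc, Oosp1 and Trbv1 complete the 20. After cyclic loess Fap was at -9.70, Tnni1 at -9.08, Fat1 at -5.89, Dpp4 at -4.43, Klrb1b at -5.13 and Ddc at -4.33, beyond their unscaled values.

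Genes of stem and progenitor cells were more often lower than higher. Of 23 measured members 9 were lower and 2 higher, 39.1% lower against 7.42% of all genes, with a median of -0.51. After median centring 7 were lower, and after cyclic loess 6. Without SCF 3 were. Gfi1, a repressor that restrains progenitor cycling, stood at -3.91 in D816V and -0.99 in Del417-419insY cells with SCF, and -3.19 and -2.47 without SCF. The D816V arrays were the lowest in both conditions, and the difference widened from -0.72 to -2.92. Hmga2, a chromatin protein of fetal progenitors, Sox4 and Satb1 were at -2.13, -2.04 and -1.85, with -1.97, -1.38 and -0.79 without SCF. The transcription factor gene Lyl1 was at -1.34, and Runx1 at -1.08 with SCF and -0.21 without. Runx1 has 4 probe sets, from -1.54 to -0.41, and its mean lay within 2-fold after each scaling (-0.93, -0.86 and -0.76 after centring, quantile and loess). Angpt1, a ligand that steadies stem cells, was at -1.61. Higher were Cd93 (2.23), a C-type lectin receptor, and Slamf1 (1.54, or 0.36 after cyclic loess). Gata2, Lmo2, Etv6 and Bmi1 stayed within 2-fold, at 0.29, -0.38, -0.57 and -0.45.

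Of 70 blood transcription factors 12 were lower (17.1%, against 7.42% of all genes) and 6 higher (8.57%, against 6.34%). The lower and higher counts were 8 and 7 after centring, 7 and 6 after quantile normalization and 7 and 7 after cyclic loess, so the balance rests on the scaling. Without SCF they were 3 and 7. Rora, an orphan nuclear receptor, was lowest, at -1.0 in D816V and 2.27 in Del417-419insY cells with SCF, and -0.31 and 2.03 without SCF. The retinoid receptor genes Rxra and Rara were at -1.60 and -1.17, Lmo4 at -1.18 and the forkhead gene Foxp1 at -1.10. The higher ones were Arnt2, Bhlhe40, a clock and stress repressor (3.21), the helix-loop-helix inhibitors Id1 (1.91) and Id2 (1.08), Nfatc2 (1.64) and the MYC antagonist Mxd1 (1.23).

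Of 21 erythroid genes 2 were higher (9.52%, against 6.34% of all genes) and 5 lower (23.8%, against 7.42%), and after centring 3 and 3. Car1, carbonic anhydrase of red cells, stood at -2.75 in D816V and 0.01 in Del417-419insY cells with SCF, and -2.65 and 0.48 without SCF. Ermap, Kel and Gypc, membrane proteins of red cells, were at -1.49, -1.21 and -1.06, and Klf1, the erythroid activator, at -1.07. Hbb-bh1, an embryonic beta-like globin, stood at 2.63 in D816V and 1.5 in Del417-419insY cells with SCF, and 1.52 and 3.16 without SCF. It was above zero on all 4 arrays, higher in D816V cells with SCF (1.14) and lower without (-1.63), and the difference with SCF was 0.14 after quantile normalization and -0.77 after cyclic loess. Globin genes are alike, so its probe sets may share signal with other globins, which was not tested. Platelet and megakaryocyte genes were 6 higher and 7 lower of 23. Lower beside Ppbp were coagulation factor X gene F10 (-2.82), F13a1 (-1.74), Pf4, a second granule chemokine (-1.63), and Gp9 (-1.32). Itgb3, the beta chain of the fibrinogen receptor, was higher by 2.08, and the thrombin receptor genes F2rl2 and F2r by 1.91 and 1.40. Of 27 genes typical of granulocytes and monocytes, 6 stood higher and 8 lower (22.2% and 29.6%). Their median was -0.67 (-0.16 after cyclic loess). Padi4, which citrullinates histones, and Ncf1, an NADPH oxidase subunit, were higher by 3.78 and 3.62, and the lysosomal glycoprotein gene Cd68 by 3.34. Sirpa, a brake on phagocytosis, Mpo, myeloperoxidase, and Ms4a3 were lower, at -2.33, -1.75 and -1.53. Lyz2, lysozyme, was at -1.44 with SCF and -0.28 without.

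Receptors for cytokines and growth factors were 4 higher and 9 lower of 35 (11.4% and 25.7%, against 6.34% and 7.42% of all genes). Il4ra, the interleukin 4 receptor, was higher by 2.39, Il12rb1 by 1.70 and Csf2rb2, an interleukin 3 receptor chain, by 1.38. Il5ra, Il6st, the shared gp130 chain, and Flt1, a VEGF receptor, were lower, at -2.04, -2.03 and -2.02, and Bmpr2 at -1.64. Secreted cytokines were 6 higher and 2 lower of 20 (30.0% and 10.0%). With Metrnl and Osm these included Ebi3, a subunit of interleukins 27 and 35 (2.10), and on the lower side Fgf3 (-1.82). Chemokines and their receptors split 5 to 3 of 11 (45.5% higher and 27.3% lower). Ccr2 stood at 0.01 against -2.97, with 4 probe sets from 1.11 to 4.61, and Ccl5, Ccrl2 and Ccl9 were higher by 2.71, 1.59 and 1.53. Of 29 TNF family and NF-kB genes 5 were higher and 2 lower (17.2% and 6.90%). Tnfsf14 (LIGHT) was at 1.86, Nfkbie at 1.27 and Tnfrsf1a, the main TNF receptor, at -1.13.

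Adhesion receptors were 9 higher and 6 lower of 31, that is 29.0% and 19.4% against 6.34% and 7.42% of all genes. The integrin beta chains went apart: Itgb3 was higher by 2.08 and Itgb5 lower, at -3.31. Among alpha chains Itgae, which binds E-cadherin, and Itgav were higher by 3.34 and 1.53, and Itga1 and Itga4 lower, at -2.57 and -1.21. The tetraspanins Tspan8 and Cd81 were higher by 4.95 and 2.50, while Cd9 was at -1.41. Sema4a and Sema4d, semaphorins of immune cells, were at 2.69 and 1.87. Matrix, protease and inhibitor genes gave 5 higher and 7 lower of 22 (22.7% and 31.8%). With Fap and Dpp4, related serine peptidases, Timp2, a metalloproteinase inhibitor, Adamts9 and Serpinf1 were lower, at -2.55, -2.44 and -2.37. Adam8, a shedding protease, Ecm1 and Serpinb1a, an inhibitor of neutrophil proteases, were higher, by 2.80, 2.02 and 1.80. Muscle-type and contractile genes were 1 higher and 5 lower of 18 (5.56% and 27.8%). Myl10 was at 3.62 and the non-muscle myosin gene Myh10 at -2.63.

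For genes of amino acid stress the median difference between the lines lay on opposite sides of 0 with and without SCF. ATF4 is a transcription factor made when amino acids run short or proteins misfold, and it induces enzymes and transporters of amino acids and tRNA synthetases. Of 48 measured ATF4 targets and amino acid synthesis genes 7 were lower (14.6%, against 7.42% of all genes) and 1 higher (2.08%, against 6.34%) in D816V cells with SCF, while without SCF 0 were lower and 6 higher. After centring, quantile normalization and cyclic loess 5, 4 and 3 were lower with SCF, and the last lies near the 5.07% of all genes. The median was -0.54 with SCF and 0.18 without, and -0.30 and 0.27 after cyclic loess. In 45 of 48 genes the difference was lower with SCF, against 58.2% of all genes. In 30 of the 48 it had opposite signs in the 2 conditions. Between the arrays of 1 line, 44 of 48 were lower with SCF in D816V cells and 37 were higher with SCF in Del417-419insY cells.

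Trib3, a pseudokinase that restrains ATF4, stood at -1.22 in D816V and 0.09 in Del417-419insY cells with SCF, and 0.53 and -1.34 without SCF. It was lower in D816V cells with SCF (-1.31) and higher without (1.87). Chac1, which degrades glutathione, stood at -2.08 in D816V and -0.59 in Del417-419insY cells with SCF, and 0.12 and -0.93 without SCF. Its D816V value with SCF was the lowest of the 4 arrays, and the differences were -1.49 and 1.05. Atf5, a factor induced by ATF4, stood at -1.41 in D816V and 0.83 in Del417-419insY cells with SCF, and 0.10 and -0.15 without SCF, a difference of -2.24 with SCF and 0.25 without. With cyclic loess the differences with SCF were -0.92, -0.78 and -2.05 for these 3 genes. Ddit3 (CHOP), a stress factor, was at -0.93 with SCF and 1.05 without, and Nupr1, a stress-induced nuclear protein, at -0.46 and 2.74. Psat1 of serine synthesis, Asns, asparagine synthetase, and Mthfd2 of mitochondrial folate metabolism were at -1.24, -1.08 and -1.01 with SCF and -0.39, -0.08 and 0.41 without. The 16 tRNA synthetase genes of the list ranged from -0.95 (Eprs) to 0.10 (Hars) with SCF, 14 of them below 0, and from -0.48 (Eprs) to 0.28 (Nars) without, 5 below 0. Sars and Cars were at -0.90 and -0.90 with SCF, while Wars, Qars and Rars lay near 0, at 0.09, -0.04 and -0.08. Atf4 itself was at -0.53 with SCF and 0.29 without. Stc2, a secreted stress protein, was the higher gene, at 1.86 and 2.38, and 6 of the 48 members lay above 0 with SCF. The ATF4 site core TGATGNAA, searched on both strands of the same RefSeq promoters (GRCm38.p6), was in 8 of 38 list members with a promoter (21.1%) and in 2.42% of all measured genes with one. It is shown in capitals or, on the opposite strand, as its complement, for 3 genes of the list named above.
Chac1, chr2:119351034-119351071, plus strand: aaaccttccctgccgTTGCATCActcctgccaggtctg
Asns, chr6:7693210-7693247, minus strand: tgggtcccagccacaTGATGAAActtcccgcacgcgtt
Nupr1, chr7:126625558-126625595, minus strand: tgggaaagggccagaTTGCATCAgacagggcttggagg

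Cholesterol synthesis genes showed the reverse. Cells build cholesterol from acetyl-CoA through mevalonate and squalene, and SREBP factors induce the enzymes when sterols are low. Of 29 measured genes of the pathway and its regulators 4 were higher and 1 lower with SCF. These are 13.8% and 3.45%, against 6.34% and 7.42% of all genes. Without SCF the counts were 0 and 1, and with SCF after centring 8 and 1. The median was 0.66 with SCF and -0.23 without, or 0.79 and -0.13 after cyclic loess. In 23 of 29 genes the difference was higher with SCF, while in 58.2% of all genes it was lower. In D816V cells 27 of the 29 were higher with than without SCF, against 17 in Del417-419insY cells. Idi1, isopentenyl diphosphate isomerase, stood at 0.89 in D816V and -0.56 in Del417-419insY cells with SCF, and 0.13 and 0.28 without SCF. D816V cells with SCF were the highest and Del417-419insY cells with SCF the lowest. Mvd and Pmvk, enzymes that carry mevalonate to isoprenoid units, differed by 1.38 and 1.30 with SCF and 0.48 and -0.002 without. Lss, which closes the sterol rings, was at 1.16 with SCF and 0.15 without. Fdps, Fdft1, Cyp51, Dhcr7, Msmo1 and Nsdhl lay between 0.66 and 0.91 with SCF and between -0.42 and -0.07 without. Hmgcs1 and Sqle were at 0.29 and 0.35. The SREBP site core TCACNCCAC was in 1 of 23 list members with a promoter, that of Hmgcs1, and in 1.11% of all measured genes with one. The lower gene was Abca1, which exports cholesterol, at -2.79 with SCF and -1.88 without. Insig1, Srebf1 and Srebf2, the regulators, were at 0.62, 0.80 and 0.03. Of fatty acid and membrane lipid genes 2 of 48 were higher and 2 lower, with a median of 0.12.

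**Figure D5:**
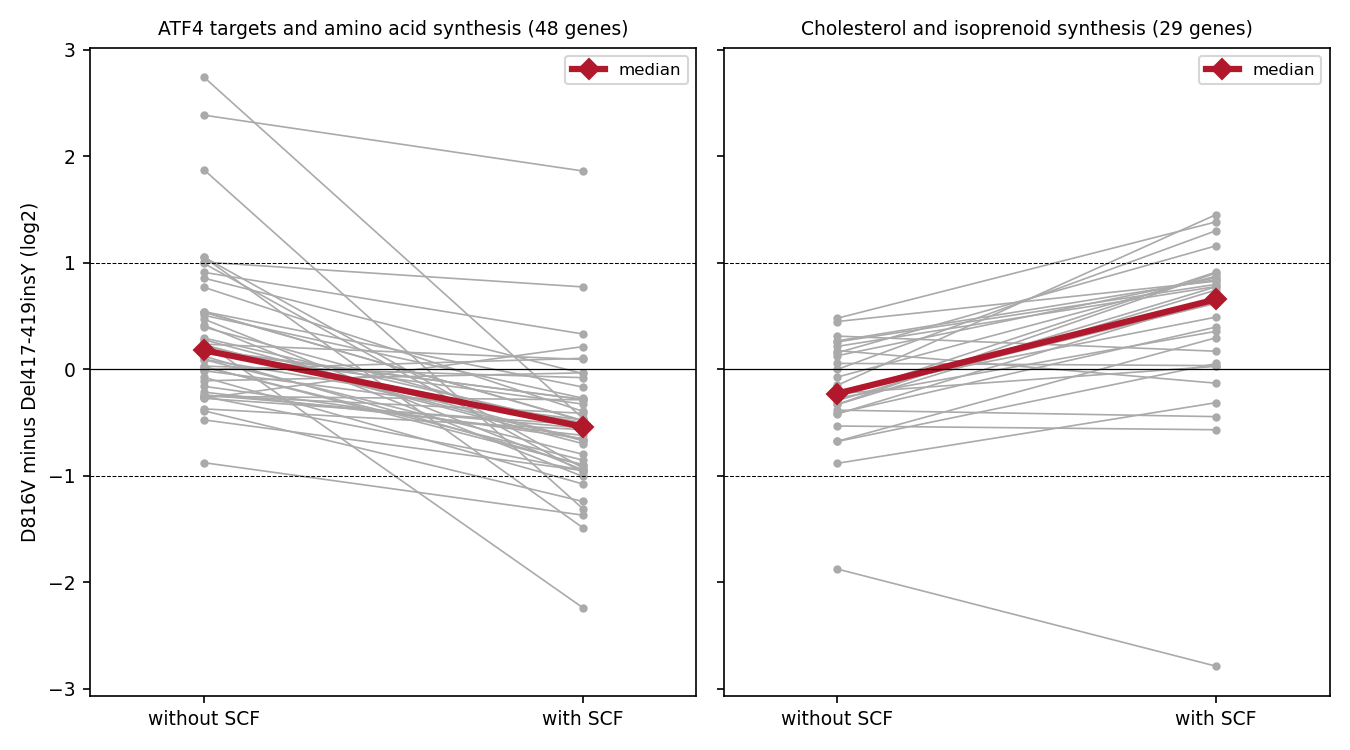
Log2 difference between D816V and Del417-419insY cells without and with SCF for each measured gene of 2 lists (grey lines) and the list median (red); dashed lines mark 2-fold. The median of ATF4 targets goes from 0.18 without SCF to -0.54 with SCF, and that of cholesterol synthesis from -0.23 to 0.66.

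Other genes also differed far more with SCF than without. Cox6a2, the muscle form of a cytochrome oxidase subunit, stood at -3.17 in D816V and 0.68 in Del417-419insY cells with SCF, and -0.89 and -0.68 without SCF. It was 14.4-fold lower in D816V cells with SCF and near equal without (-0.21), and its 2 probe sets gave -4.01 and -3.69. P2rx3, an ATP-gated channel, stood at -2.78 in D816V and 0.79 in Del417-419insY cells with SCF, and -0.71 and 0.47 without SCF. Its 3 probe sets ranged from -3.80 to -3.25. The D816V array with SCF was the lowest of the 4 for both genes. Serpinf1, a secreted anti-angiogenic factor, was at -2.37 with SCF and -0.48 without, the T cell receptor segment Trav6-3 at -2.06 with SCF and -0.08 without, 4930550C14Rik at -2.98 with SCF and -0.61 without and Pck2, a mitochondrial enzyme, at -1.01 with SCF and 0.78 without. In the other direction Itih5, a matrix-binding protein, stood at 4.31 in D816V and 0.02 in Del417-419insY cells with SCF, and 2.92 and 0.12 without SCF, and Rnf128, a ubiquitin ligase, differed by 3.65 with SCF and 2.45 without. Ifi27l2a was at 1.82 with SCF and 0.67 without, Fam220a at 1.41 with SCF and 0.12 without and Tpgs2 at 1.26 with SCF and 0.15 without. Pygl, already among the highest genes, went from 4.21 without SCF to 5.40 with it.

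Survival genes were mixed, and few cycling genes were 2-fold apart. Of 33 BCL2 family, caspase and p53 target genes 3 were higher and 5 lower (9.09% and 15.2%, against 6.34% and 7.42% of all genes). Bcl2 and Bcl2l1, which block apoptosis, were higher by 1.30 and 1.25, although Bcl2 was at 0.66 after cyclic loess. Ddit4, an mTOR inhibitor, was at 1.77. Cflar, Bid and Gadd45a were at -1.18, -1.09 and -1.26, or -1.03, -0.93 and -1.11 after centring. Of 77 cell cycle and mitosis genes 1 was higher and 1 lower, and the median of -0.24 lay near that of all genes. Ribosome biogenesis gave 0 higher and 3 lower of 61, chaperones 1 and 1 of 42, and the respiratory chain 1 and 1 of 54. None of 58 mitochondrial ribosomal protein genes and none of 38 translation factor genes was 2-fold apart. Glycolysis and hypoxia genes were 4 higher (13.3%) and 0 lower of 30. The glucose transporter genes Slc2a3 and Slc2a1 were at 2.40 and 1.02, and the oxygen sensor gene Egln1 at 1.36. Of 94 chromatin modifiers 9 were lower (9.57%, against 7.42% of all genes) and 1 higher (1.06%, against 6.34%). The share that was lower lies near that of all genes. The lower ones included the histone demethylase gene Kdm7a (-2.26) and the deacetylase gene Hdac4 (-1.24). After centring 6 were lower, and after cyclic loess 5. Of 8 histone genes 4 were lower (50.0%, against 7.42% of all genes), 2 after centring. H2aw was at -1.75 with SCF and -0.23 without. Histone genes share much of their sequence, and whether probe sets read several of them was not tested.

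Probe sets of 1 gene could be compared for 118 higher and 181 lower genes. All probe sets had the same sign in 118 of the higher and 179 of the lower ones, and all were 2-fold or more apart in 85 and 107. These genes were called on the mean of the same probe sets, which favours such agreement. The shares over all 2201 genes with 2 or more probe sets were not computed. The widest ranges were those of Armcx2, from 0.53 to 5.11, Rasgrp2, Tsc22d1, from -3.84 to 0.15, Ccr2 and Chchd6, from 0.99 to 4.27. Ddx18 ran from -3.20 to -0.35, Aff3 from -3.92 to -1.10 and Mindy1 from 1.01 to 3.78. The other called genes, 288 higher and 294 lower, rest on 1 probe set.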

How the data were processed

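RNA of 4 cultures was hybridised to Affymetrix mouse arrays, 1 array per culture. Per the submitters' processing notes the authors used RMA; the deposited values are taken as log2, a base that no source used here states. The authors' table holds 10861 of 45101 probe sets stated for the array, by a filter not given here, so shares refer to these. Detection could not be examined, and having 1 array a group limits the precision. Of the probe sets 9633 had 1 symbol in the platform annotation, 264 several and 964 none; 11 gene IDs had no match in RefSeq GRCm38.p6. Gene values are means of single-symbol probe sets.

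Differences are D816V minus Del417-419insY. Alternatives were median centring, quantile normalization, cyclic loess (limma 3.58.1, R 4.3.3), other probe set summaries and other thresholds. The calling was tested on simulated arrays with known changes. That test does not measure the error of the calls made here. The members, 56 lists and motifs were chosen with earlier results of these data known. Lists overlap. Named were the 20 largest differences on each side that were 2-fold under every scaling, list members past 2-fold (the 8 farthest per list) or near 0, the 10 that departed most from the difference without SCF on each side, the 8 with the widest probe sets, Kit and the genes next to the threshold. Further list members were chosen after their values were seen, as were Nupr1 and the ATF4 and SREBP motifs. Promoters of 5248 genes came from RefSeq (GRCm38.p6). A gene with several starts counts once.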

Additional observations from a re-analysis of the deposited data

Results flagged for a closer look

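These results were singled out because the genotype difference had opposite signs with and without SCF, with 1 array per group. The difference between conditions was not tested. Trib3 differed by -1.31 with SCF and 1.87 without. Chac1 differed by -1.49 with SCF and 1.05 without. Hbb-bh1 differed by 1.14 with SCF and -1.63 without, and its sign with SCF turned under cyclic loess. The median of ATF4 targets and amino acid synthesis genes was -0.54 with SCF and 0.18 without. The median of cholesterol and isoprenoid synthesis genes was 0.66 with SCF and -0.23 without.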

How the results depend on the processing

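At a 1.5-fold threshold 844 genes were higher and 1307 lower in D816V cells with SCF, and at 4-fold 164 and 90. Where a gene needed 2 or more probe sets, all 2-fold or more apart, 85 were higher and 107 lower. Of the called genes, 118 higher and 181 lower ones had 2 or more probe sets. The rest of the drop came from genes with a probe set short of 2-fold. The counts stayed within 1.5 times of 406 and 475 under median centring, quantile normalization, cyclic loess, the highest-mean probe set and the median of probe sets. Counts of higher or lower members moved by over 1.5 times in 21 cases over all lists under centring, while 91 did not. Under quantile normalization 20 moved and 92 did not, and under cyclic loess 33 moved and 79 did not. Of the named genes, 3 changed sign. Gng2, a G protein subunit, went from -1.09 to 0.0050 with its highest-mean probe set, the others being left out. Under cyclic loess Gzmc was at -0.90 and Hbb-bh1 at -0.77; the cause was not tested. No paired analysis was run, and each group has 1 array. With 1 array per side no replicate could be left out, and signal over background could not be read from processed values.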

Other observations

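Cell surface and transport genes outside the groups above also separated the lines with SCF. Of 31 G protein-coupled receptors 6 were higher and 6 lower (19.4% each, against 6.34% and 7.42% of all genes). Gpr34, a lysophospholipid receptor, C3ar1, the receptor of complement fragment C3a, and Gpr146 were higher by 3.46, 2.57 and 1.90. Adgrl2, an adhesion receptor, Sstr2, a somatostatin receptor, and the Wnt receptor gene Fzd5 were lower, at -2.93, -2.92 and -1.94. Gnaq, the alpha subunit that activates phospholipase C beta, was lower, at -3.12, from -2.56 against 0.56, and Rgs2, which limits it, at -1.49. Ion channels were 2 higher and 5 lower of 24 (8.33% and 20.8%). Ano1, a calcium-activated chloride channel, and Trpv4, a cation channel, were lower, at -1.93 and -1.78, and the potassium channel gene Kcnk5 was higher by 2.28. Solute carriers gave 8 higher and 9 lower of 115, near the shares of all genes, with the sugar transporter gene Slc2a6 at 2.68.

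Intracellular families were mixed. Ptprg, a receptor phosphatase, was higher by 4.04, while Ptpn14 and Ptpn22 were at -1.41 and -1.20. Diaph2, a formin, and Capg, which caps actin filaments, were higher by 2.59 and 2.46. Diaph1 was at -1.39, but its probe sets gave -2.24 and -0.54, the latter within 2-fold. Tubb6, a tubulin, was at 3.13 and Tubb2b at -1.77. Among detoxification genes 9 of 38 were higher and 2 lower (23.7% and 5.26%, against 6.34% and 7.42% of all genes). Cyp11a1, which starts steroid synthesis, was at 2.16 and the thioredoxin reductase gene Txnrd3 at 2.53. Mt2, metallothionein, was at 2.05 with SCF and 3.58 without, and Gstm1 at -1.92 with SCF and -0.60 without. Of 128 Zfp genes 10 were lower (7.81%, near the 7.42% of all genes) and 4 higher, with Zfp711 at -3.12 and Zfp52 at 3.02. Hnrnpll, a splicing regulator, was at -2.13, and was the sole called gene of 60 splicing factors.

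Among 1228 probe sets that no single symbol names, 80 were 2-fold or more higher (6.51%) and 134 lower (10.9%), between -3.91 and 7.84.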
